A study of Mus musculus with 6 samples.

Results

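The interferon module read here held 53 mouse genes, made up of the interferon beta gene and the receptor genes for type I and type II interferon, transcription factors, sensors, and genes that interferons are known to switch on. The members were chosen by name from textbook knowledge of the interferon response, but with earlier results of these data known. Their number among the called genes is therefore a description and no independent test. All 53 were found among the 54109 gene identifiers of the deposited count tables. Their transcripts were compared between cultures with and without Sox10 editing, and 41 of the 53 had enough reads for the test. The other 12 did not pass the low-count filter and were not tested. None of them exceeded 69 reads when all 6 libraries were added up.

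The libraries came from Msc80, a mouse Schwann cell line that was grown in DMEM medium with penicillin, streptomycin and 10% fetal calf serum. There were 3 control cultures of genotype Sox10 wt and 3 Sox10ko cultures, in which CRISPR/Cas9 editing had been used to prevent expression of Sox10, the transcription factor that drives Schwann cell identity and myelin genes. No interferon, virus or other inducer of the pathway is named in the labels. The labels call the Sox10ko source a cell clone and do not say whether the 3 cultures came from 1 clone or several, so a clone's own features and the loss of Sox10 cannot be told apart. The labels speak of biological replicates, and the p-values measure the spread between these cultures only.

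As background, type I interferons such as interferon beta bind the receptor pair Ifnar1 and Ifnar2, and the kinases Jak1 and Tyk2 then activate a complex with Stat2 and Irf9 that binds interferon-stimulated response elements (ISRE) in target promoters. Interferon gamma, the type II interferon, binds Ifngr1 and Ifngr2, and signalling through Jak1 and Jak2 then acts on gamma-activated sites (GAS) in promoters, with Irf1 among the first targets. Most target genes answer to both interferons to some degree, so each member was sorted by the interferon it is best known for. Type I-associated genes include the Ifit, Oas and Mx families and Isg15, and gamma-associated genes include the guanylate-binding proteins (Gbp) and the immunity-related GTPases (Irgm1, Igtp, Iigp1 and Ifi47).

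The libraries held between 32328618 and 41834431 reads assigned to genes. The unit of level is CPM, in which trimmed-mean (TMM) factors scale each library to its total, and 1 read was worth between 0.0235 and 0.0300 CPM. Levels of different genes are compared only as RPKM, which is CPM per kilobase of exon. Sox10 itself read 606, 627 and 617 CPM in the controls and 82.3, 67.5 and 116 CPM in the Sox10ko libraries, so its transcript was lower without being absent. Of 12 Schwann cell markers, Sox10 among them, 9 (75%) were lower and 0 higher, beside 14.7% and 17.3% of all tested genes. Ncam1, Mbp and Egr2 were not called. The summed level of the 12 was between 4852 and 5426 CPM in the controls and between 258 and 353 CPM in the Sox10ko libraries. Ngfr made up most of that sum in the controls, at 2965, 2693 and 3237 CPM against 31.2, 13 and 5.03 CPM in Sox10ko.

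Of the 41 tested members, 31 were higher in Sox10ko, 3 were lower (Ifnar1, Ifnar2 and Parp14) and 7 did not pass the test (edgeR quasi-likelihood test, Benjamini-Hochberg adjusted over all 15427 tested genes, threshold 0.05). The higher members were 75.6% of those tested, beside 17.3% of all tested genes called higher, and the lower members were 7.32%, beside 14.7% of all tested genes called lower. The median log2 fold change of the tested members was 1.31, with a range from -1.50 to 6.45, and that of all tested genes was 0.02. In 32 members every Sox10ko library was above every control library and in 3 every one was below, where 25.5% and 23.8% of all tested genes were separated in those directions. The 32 were the 31 members called higher together with Irf2. Of the 31, 11 entered the test only through their Sox10ko libraries, so their separation is not used as support.

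The filter on low counts lets a gene in when either group is high enough, and 13 of the 41 members entered only through their Sox10ko libraries (Irf5, Isg15, Usp18, Zbp1, Oasl2, Mx1, Mx2, Ifi205, Ifi27l2a, Rtp4, Ifi47, Igtp and Iigp1). Of these 13, 11 were called higher and 2 were not called, and since such genes could hardly be lower their direction is not used as support. The other 28 members would also have passed on the control libraries alone. Of those 28, 20 were higher (71.4%) and 3 were lower (10.7%), beside 14.2% higher and 16.5% lower among all genes that pass on the controls alone, and their median log2 fold change was 0.94. Most genes of both interferon groupings rose. Among type I-associated genes 21 of 26 tested were higher and 1 was lower, with a median log2 fold change of 1.79, and among gamma-associated genes 8 of 8 tested were higher, with a median of 2.19. Restricted to genes that pass on the controls alone, the counts were 13 higher of 17 (median 0.93) for type I and 5 higher of 5 (median 1.33) for gamma. The difference between the groupings was not tested. The counts fell when any 1 control library was left out, most of all replicate 3. Without control replicate 3, 20 members, 5 of them gamma-associated, were called higher and the calls among all genes went from 4939 to 2869. Without control replicate 1 these were 27 members and 3471 genes, and without control replicate 2 they were 24 members and 3793 genes.

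**Figure D1:**
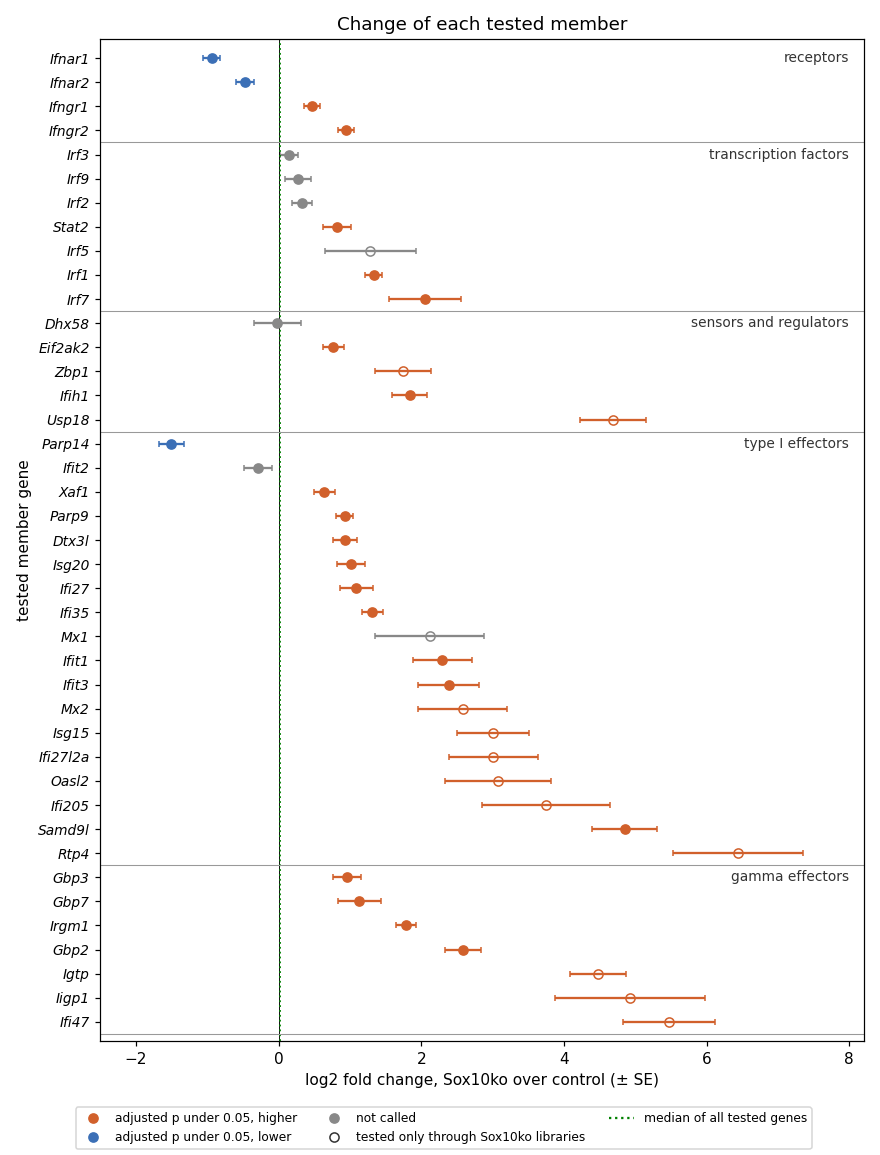
Log2 fold change of each of the 41 tested members, Sox10ko over control, with its standard error, by class (3 libraries per group). Filled points passed the count filter on the controls alone, open points entered only through the Sox10ko libraries, and colour gives the call at an adjusted p of 0.05. Both type I receptor genes and Parp14 lie to the left of the line at 0, and the 7 gamma effectors all lie to the right of it.

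The ligands were close to unread. Interferon beta (Ifnb1), the first type I interferon most cells make, had 0 reads in the 3 control libraries and 1 read in all 3 Sox10ko libraries together, in replicate 2. The 20 further interferon genes that were looked up (the interferon alpha family, Ifnab, Ifnz, Ifnk, Ifne, interferon gamma and the lambda genes) were all below the filter, 12 of them had 0 reads in every library, and the highest, Ifnab, had 20 reads over all 6 libraries. Interferon gamma (Ifng) had 0 reads in all 6 libraries. With 3 reads as the limit that a count of 0 allows, a level of up to 0.0257 CPM in the controls and 0.0258 CPM in Sox10ko could have gone unseen, by counting error alone. Interferon protein was not measured.

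All 4 receptor chains were read, and the type I and gamma receptors moved in opposite directions. Ifnar1, a chain of the type I receptor (chr16:91485238-91507441, GRCm38), read 111, 138 and 126 CPM in the controls and 71.9, 65.1 and 58.9 CPM in Sox10ko. The groups did not overlap, and the means were 125 ± 13.5 and 65.3 ± 6.54 CPM (SD, n = 3), a log2 fold change of -0.94 ± 0.12 (SE; edgeR adjusted p = 0.00146). Ifnar2, its partner chain (chr16:91372783-91405589), read 21.6, 25.1 and 24.6 CPM in the controls and 18.3, 15.6 and 17.5 CPM in Sox10ko. This smaller drop gave a log2 fold change of -0.47 ± 0.12 (adjusted p = 0.0239 by edgeR), again with no overlap.

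The gamma receptor chains were both higher. Ifngr1, the ligand-binding chain (chr10:19591949-19610229), read 40.0, 33.7 and 34.6 CPM in the controls and 47.1, 48.2 and 54.4 CPM in Sox10ko, a log2 fold change of 0.47 ± 0.11 (edgeR adjusted p = 0.0180). Ifngr2, the signalling chain (chr16:91547072-91565623), read 22.0, 23.6 and 23.0 CPM against 48.2, 44.1 and 39.4 CPM, a log2 fold change of 0.94 ± 0.11 (edgeR adjusted p = 0.00103). Neither gene's groups overlapped. Per exon length the order of mean levels in the controls was Ifnar1 (21.1 RPKM), Ifngr1 (12.7 RPKM), Ifnar2 (7.14 ± 0.565 RPKM) and Ifngr2 (6.07 ± 0.215 RPKM). In Sox10ko it was Ifngr1 (17.5 RPKM), Ifngr2 (11.7 ± 1.17 RPKM), Ifnar1 (11.0 ± 1.10 RPKM) and Ifnar2 (5.15 RPKM), where the middle pair differed by less than its spread. The calls of Ifnar2 and Ifngr1 were the weaker ones: each was lost without control replicate 2 and without control replicate 3, and Ifnar2 also without Sox10ko replicate 2, with edgeR adjusted p over all alternatives up to 0.0880 for Ifnar2 and 0.0893 for Ifngr1.

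**Figure D2:**
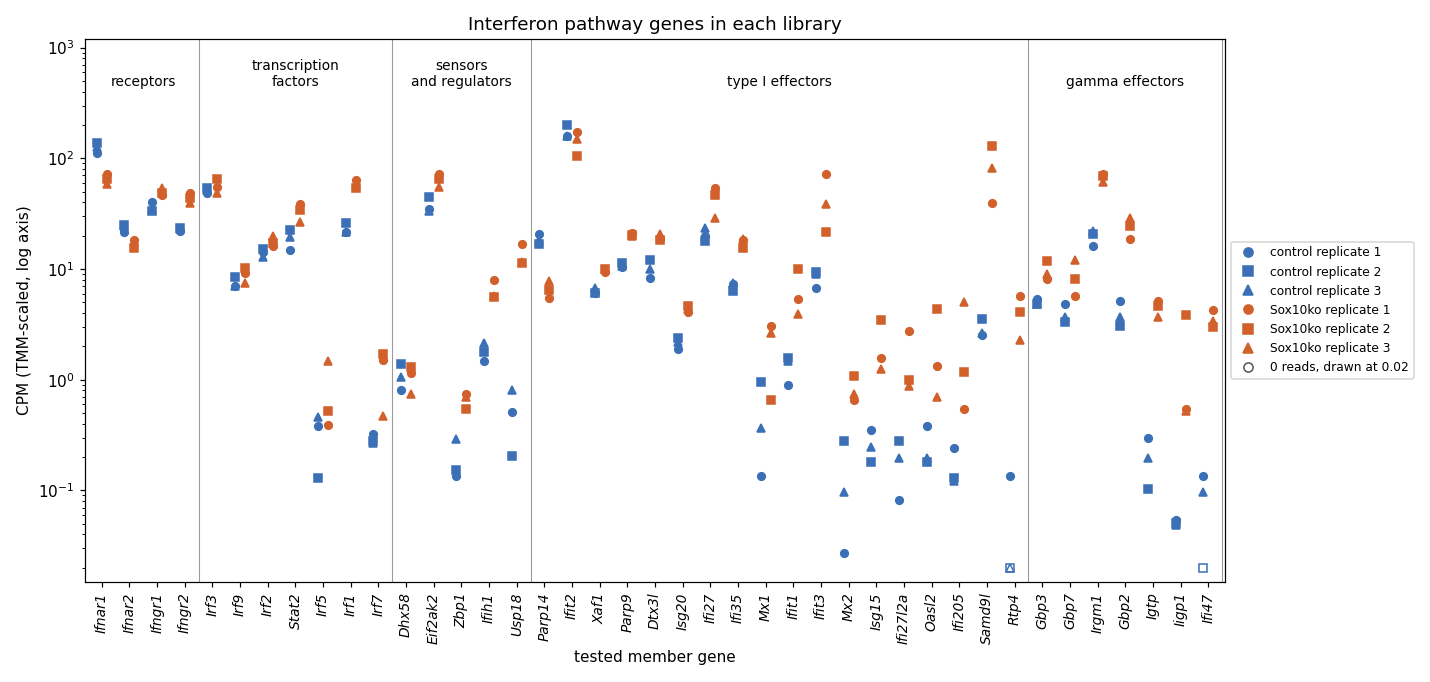
Level of each of the 41 tested members in each library, in TMM-scaled CPM on a log axis, with controls in blue, Sox10ko in orange and the replicate number given by the marker. Genes listed at 0 reads are drawn as open markers at 0.02. Ifit2 is the type I effector with the highest control level and its groups overlap, while Rtp4 and Ifi47 have control libraries with 0 reads.

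Among the transcription factors, 3 of 7 tested genes (42.9%) were higher, beside 17.3% of all tested genes, and 4 were not called. Irf1, an activator that interferon gamma induces, read 21.5, 26.2 and 21.5 CPM in the controls and 63.3, 53.9 and 57.1 CPM in Sox10ko. The groups were far apart, with a highest-to-lowest ratio of 1.18 among the Sox10ko libraries, and the log2 fold change was 1.33 ± 0.12 (edgeR adjusted p = 0.000398). Irf7, which amplifies type I interferon production, was low in every library, at 0.325, 0.282 and 0.269 CPM in the controls and 1.50, 1.69 and 0.473 CPM in Sox10ko. Its log2 fold change was 2.05 ± 0.51 (edgeR adjusted p = 0.0198), and this call was lost when any 1 of the control libraries, Sox10ko replicate 1 or Sox10ko replicate 2 was left out.

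Of the type I transcription complex, Stat2 passed the test and Irf9 did not, and the difference between them was not tested. Stat2 read 14.8, 22.3 and 19.4 CPM in the controls and 38.7, 34.3 and 26.7 CPM in Sox10ko, a log2 fold change of 0.82 ± 0.20 (edgeR adjusted p = 0.0180), and the call was lost without control replicate 1 and without control replicate 3. Irf9, the DNA-binding part of the complex, read 6.97, 8.53 and 6.96 CPM against 9.23, 10.2 and 7.55 CPM. Its groups overlapped, and its log2 fold change of 0.27 ± 0.18 did not pass (edgeR adjusted p = 0.309).

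The remaining interferon regulatory factors were not called. Irf3, Irf7 and Irf9 also share 88, 45 and 123 exonic bases with a neighbouring gene. The neighbour of Irf7, Phrf1 on the opposite strand, had 31815 reads over all libraries beside 34 control and 141 Sox10ko reads of Irf7, so how many of the Irf7 reads are its own is uncertain without the strand setting of the counting. Irf3, the factor that sensors of viral nucleic acid activate, had a log2 fold change of 0.14 ± 0.12 (edgeR adjusted p = 0.429). Irf2, an antagonist of Irf1, had 0.33 ± 0.14 (edgeR adjusted p = 0.107) although its 3 Sox10ko libraries were all above the controls. Irf5, a factor of myeloid cells, had 1.29 ± 0.64 (edgeR adjusted p = 0.170) on 38 control and 94 Sox10ko reads, and it shares 411 exonic bases with the far more abundant Tnpo3 on the opposite strand. Irf8, another myeloid factor, was not tested, with 2 control and 8 Sox10ko reads, a ratio of 4.03 (exact 95% counting interval 0.804 to 38.9).

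For each member with an entry, the RefSeq promoter window on GRCm38.p6 from 250 bases before to 50 bases after a transcript start was read for an ISRE core, GAAA, any 2 bases, then GAAA, and for the GAS core TTCNNNGAA, both on either strand. The stretch of 160 bases before the start is shown for 10 members whose data differ, with letters of a match in capitals. Irf1 (chr11:53769854-53770013, plus strand), the transcription factor with the lowest adjusted p, has a GAS core and no ISRE core.
Irf1: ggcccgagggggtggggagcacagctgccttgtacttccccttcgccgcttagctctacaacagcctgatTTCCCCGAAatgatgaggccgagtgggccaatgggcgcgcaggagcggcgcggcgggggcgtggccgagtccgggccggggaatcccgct

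Among the sensors and regulators 4 of 5 tested genes were higher, but Usp18 and Zbp1 entered the test only through their Sox10ko libraries. Of the 3 that pass on the controls alone 2 were higher, beside 14.2% of all such genes. Usp18, which removes Isg15 from proteins and dampens the type I receptor, had the largest change of this class. It read 0.515, 0.205 and 0.806 CPM in the controls and 16.9, 11.3 and 11.5 CPM in Sox10ko, a log2 fold change of 4.69 ± 0.46 (edgeR adjusted p = 0.000531). It entered the test only through its Sox10ko libraries, so neither its direction nor the gap between its groups is used as support.

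Of the cytosolic RNA sensors Ifih1 was called higher and Dhx58 was not called, and the difference between them was not tested. Ifih1 (MDA5), a sensor of long double-stranded RNA, read 1.46, 1.77 and 2.12 CPM in the controls and 7.91, 5.59 and 5.68 CPM in Sox10ko, a log2 fold change of 1.84 ± 0.25 (edgeR adjusted p = 0.00183). Dhx58 (LGP2), its cofactor, read 0.813, 1.38 and 1.05 CPM against 1.14, 1.31 and 0.748 CPM. The groups of Dhx58 overlapped throughout, with a log2 fold change of -0.02 ± 0.33 (edgeR adjusted p = 0.969). Eif2ak2 (PKR), a kinase that halts translation on double-stranded RNA, read 35.1, 44.7 and 33.6 CPM against 71.7, 65.7 and 55.4 CPM, a log2 fold change of 0.77 ± 0.15 (edgeR adjusted p = 0.00822). Zbp1, a sensor of Z-form nucleic acid, was low at 0.136, 0.154 and 0.293 CPM against 0.749, 0.540 and 0.698 CPM, a log2 fold change of 1.74 ± 0.39 (edgeR adjusted p = 0.0142). That call was lost without control replicate 1 and without control replicate 2. Trim25, a ubiquitin ligase of the RNA-sensing pathway, had 7 control and 8 Sox10ko reads and was not tested.

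The type I effectors formed the largest class, with 26 genes of which 18 were tested, 15 were higher, 1 was lower and 2 were not called. The higher genes were 83.3% and the lower 5.56% of those tested, beside 17.3% and 14.7% of all tested genes. Of the 11 that pass on the controls alone, 9 (81.8%) were higher and 1 (9.09%) was lower, beside 14.2% and 16.5% of all such genes. The median log2 fold change of the 11 was 1.02, and that of the 18 was 2.21. Promoters of 5 of these genes are set out first because their readouts differ: Isg15, Ifit1 and Ifit3 were higher, Ifit2 was not called, and Oas1a was barely read. The stretches lie at chr4:156200819-156200978 (minus strand) for Isg15, chr19:34640729-34640888 (plus) for Ifit1, chr19:34583369-34583528 (plus) for Ifit3, chr19:34550534-34550693 (plus) for Ifit2 and chr5:120907526-120907685 (minus) for Oas1a.
Isg15: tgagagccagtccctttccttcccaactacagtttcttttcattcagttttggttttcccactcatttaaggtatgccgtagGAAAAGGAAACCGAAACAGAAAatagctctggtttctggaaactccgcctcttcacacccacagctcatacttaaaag
Ifit1: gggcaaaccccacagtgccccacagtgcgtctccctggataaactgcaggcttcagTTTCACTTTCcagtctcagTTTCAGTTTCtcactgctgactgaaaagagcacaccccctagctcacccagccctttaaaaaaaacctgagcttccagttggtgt
Ifit3: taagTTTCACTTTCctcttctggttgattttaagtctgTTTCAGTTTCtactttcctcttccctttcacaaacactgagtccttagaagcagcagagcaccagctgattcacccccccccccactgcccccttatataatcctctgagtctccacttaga
Ifit2: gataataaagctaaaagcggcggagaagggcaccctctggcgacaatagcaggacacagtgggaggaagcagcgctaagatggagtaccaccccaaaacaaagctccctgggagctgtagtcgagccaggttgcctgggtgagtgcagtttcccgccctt
Oas1a: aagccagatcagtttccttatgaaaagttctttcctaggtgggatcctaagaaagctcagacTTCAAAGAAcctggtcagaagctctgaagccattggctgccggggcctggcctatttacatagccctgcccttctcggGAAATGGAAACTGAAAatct
Isg15 has 3 overlapping ISRE cores in this stretch, and Ifit1 and Ifit3 have 2 each. No match falls in the Ifit2 stretch, and its only match in the window is a GAS core whose first base lies at -241. This stretch lies just before the upstream end of the gene, which has 2 annotated transcripts over chr19:34550694-34576419. Sequence outside the windows was not read, so an ISRE core elsewhere in or near Ifit2 could have been missed. Any link between these matches and the calls was not tested. Oas1a has ISRE cores at -20 and -14 and a GAS core at -98, and yet it had 2 control reads and 0 Sox10ko reads.

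Samd9l, a restriction factor of virus replication, showed the largest change among type I effectors that pass on the controls alone. It read 2.55, 3.51 and 2.66 CPM in the controls and 39.7, 130 and 81.8 CPM in Sox10ko, a log2 fold change of 4.85 ± 0.46 (edgeR adjusted p = 0.000438). The Sox10ko libraries differed from each other by 3.28-fold, and the lowest of them was still far above every control. Rtp4, a chaperone of membrane receptors that interferon induces, read 0.136, 0 and 0 CPM in the controls and 5.75, 4.11 and 2.29 CPM in Sox10ko. Its 5 control reads all came from replicate 1, against 459 reads in Sox10ko, and the log2 fold change was 6.45 ± 0.91 (edgeR adjusted p = 0.00221). Without control replicate 1 the controls held 0 reads, which puts Rtp4 at least 105-fold higher with 3 reads over the group as the floor, and without control replicate 3 the fitted change was 57.3-fold against 87.1-fold with all libraries. Rtp4 shares 296 exonic bases with another gene on the same strand.

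Isg15, the ubiquitin-like protein that Usp18 removes, read 0.352, 0.179 and 0.244 CPM in the controls and 1.56, 3.45 and 1.25 CPM in Sox10ko, a log2 fold change of 3.00 ± 0.50 (edgeR adjusted p = 0.00433). Isg15 entered the test only through its Sox10ko libraries, so its direction is not used as support. The size rested in part on Sox10ko replicate 2, without which the fold was 5.34 rather than 8.02. Oasl2, a relative of the RNA-sensing oligoadenylate synthetases, read 0.380, 0.179 and 0.195 CPM against 1.32, 4.34 and 0.698 CPM, a log2 fold change of 3.07 ± 0.74 (edgeR adjusted p = 0.0189). Its fold was 3.95 without Sox10ko replicate 2 and 8.41 with it, and the call was lost without control replicate 2 and without control replicate 3. Ifi205, a member of the DNA-binding p200 family, read 0.244, 0.128 and 0.122 CPM against 0.539, 1.17 and 5.01 CPM, a log2 fold change of 3.75 ± 0.90 (edgeR adjusted p = 0.0179). Here replicate 3 stood far above the others, the fold without it was 5.17 against 13.5, and the call was lost without control replicate 2 or 3. The p200 genes are near copies of one another, so the reads of Ifi205 are uncertain.

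The Ifit genes, whose proteins bind foreign RNA ends, sit side by side on chromosome 19 and did not move together. Ifit3 read 6.72, 9.48 and 9.11 CPM in the controls and 72.2, 21.5 and 38.5 CPM in Sox10ko, a log2 fold change of 2.38 ± 0.42 (edgeR adjusted p = 0.00553). Ifit1 read 0.895, 1.56 and 1.47 CPM against 5.33, 10.1 and 3.89 CPM, a log2 fold change of 2.30 ± 0.41 (edgeR adjusted p = 0.00605). The libraries ranked differently for these neighbours, with Ifit3 highest in Sox10ko replicate 1 and lowest in replicate 2, where Ifit1 was highest. Ifit2 read 160, 201 and 160 CPM in the controls and 174, 104 and 148 CPM in Sox10ko. Its groups overlapped and its log2 fold change of -0.29 ± 0.20 did not pass (edgeR adjusted p = 0.303). Per exon length Ifit2 was the most abundant member in the controls, at 44.2 RPKM beside 4.83 RPKM for Ifit3 and 0.492 RPKM for Ifit1.

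The smallest changes that passed among the type I effectors were those of Xaf1, Parp9 and Dtx3l, with no overlap between groups. Xaf1, an antagonist of apoptosis inhibitors, read 6.05, 6.10 and 6.76 CPM in the controls and 9.41, 9.95 and 10.1 CPM in Sox10ko, a log2 fold change of 0.64 ± 0.15 (edgeR adjusted p = 0.0154), and leaving out any 1 of the control libraries lost the call. Parp9 and Dtx3l, which form a complex that modifies histones in interferon signalling, were higher by nearly the same amount. Parp9 read 10.4, 11.4 and 10.6 CPM against 21.1, 20.5 and 20.0 CPM (log2 fold change 0.92 ± 0.12, edgeR adjusted p = 0.00137). Dtx3l read 8.32, 12.0 and 10.0 CPM against 18.8, 18.2 and 20.9 CPM (log2 fold change 0.93 ± 0.17, edgeR adjusted p = 0.00562). Both genes are read from opposite strands of 458 shared exonic bases, and whether counting used strand is not given in the sources used here, so part of their reads may be common.

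Parp14, another mono-ADP-ribosyltransferase of the same region of chromosome 16 and the only effector that fell, read 20.9, 17.0 and 18.3 CPM in the controls and 5.51, 6.43 and 7.80 CPM in Sox10ko. The groups were far apart, and the log2 fold change was -1.50 ± 0.18 (edgeR adjusted p = 0.00102). The other effectors that rose were Ifi35 (log2 fold change 1.31), Ifi27 (1.09), Isg20 (1.02), Ifi27l2a (3.01) and Mx2 (2.58), with adjusted p by edgeR between 0.000869 and 0.0185. Mx2, a GTPase that blocks viruses, held at most 1.08 CPM in any library, and its fold was 12.3 without control replicate 2 against 5.98. The fold of Ifi27l2a was 4.88 without Sox10ko replicate 1 against 8.04. Without control replicate 3 neither Mx2 nor Ifi27l2a was called, and Ifi27 was not called without control replicate 2. Mx1, the nuclear relative of Mx2, had a log2 fold change of 2.12 ± 0.77 that did not pass (edgeR adjusted p = 0.0732), and its Sox10ko libraries overlapped the controls. DESeq2's Wald test called Mx1 (adjusted p = 0.0223), as did edgeR with no low-count filter (0.0317), without control replicate 2 (0.0465) or without Sox10ko replicate 2 (0.0312).

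Of the 8 type I effectors that were not tested, several stayed at or near 0 reads in every library. Cmpk2 had 0 reads in all 6 libraries, and Oas1a had 2 control reads and 0 in Sox10ko. Oas2 had 0 control reads and 6, 0 and 0 reads in Sox10ko, and Oas3 had 0 control reads and 59, 2 and 0 in Sox10ko, so 96.7% of the Oas3 reads came from replicate 1. Oas3 in the pooled Sox10ko libraries was thus at least 20.5-fold higher than 3 reads over the control group, and 1 culture decided that value. Ifi44 had 2 control and 50 Sox10ko reads (ratio 25.2, exact 95% counting interval 6.61 to 214), of which 78% were in replicate 2. Rsad2 (viperin) had 7 control reads and 0, 26 and 11 in Sox10ko. Bst2 (tetherin) had 11 control and 58 Sox10ko reads, 77.6% of them in replicate 2, and Oasl1 had 13 and 53 reads. Counting intervals cover counting error only and not the spread between cultures.

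All 7 tested gamma effectors were higher, beside 17.3% of all tested genes. Of the 7, 4 pass on the controls alone, with a median log2 fold change of 1.46. Of all genes that pass on the controls alone, 14.2% were higher. Promoters of 4 of them are shown because they carry the cores in different combinations. Gbp2 lies at chr3:142620503-142620662 (plus strand), Gbp7 at chr3:142530176-142530335 (plus), Igtp at chr11:58199396-58199555 (plus) and Irgm1 at chr11:48871421-48871580 (minus).
Gbp2: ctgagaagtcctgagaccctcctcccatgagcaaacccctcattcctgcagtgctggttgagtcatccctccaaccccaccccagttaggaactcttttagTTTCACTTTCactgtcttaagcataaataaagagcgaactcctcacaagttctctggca
Gbp7: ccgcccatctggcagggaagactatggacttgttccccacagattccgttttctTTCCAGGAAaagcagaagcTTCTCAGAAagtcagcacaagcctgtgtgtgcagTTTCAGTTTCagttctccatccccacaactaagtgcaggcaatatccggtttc
Igtp: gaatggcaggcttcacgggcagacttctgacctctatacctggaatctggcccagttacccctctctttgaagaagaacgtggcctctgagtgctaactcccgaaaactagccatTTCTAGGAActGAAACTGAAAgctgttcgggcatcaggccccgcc
Irgm1: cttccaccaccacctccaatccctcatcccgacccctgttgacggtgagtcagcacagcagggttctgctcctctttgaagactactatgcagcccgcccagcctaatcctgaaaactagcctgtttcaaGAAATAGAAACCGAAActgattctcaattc
Gbp7 and Igtp hold GAS and ISRE cores, while Gbp2 and Irgm1 hold only ISRE cores in their windows.

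Irgm1, a GTPase that acts on membranes around intracellular microbes, was the gamma effector with the highest control level per exon length, at 3.37 RPKM. It read 16.1, 20.5 and 22.1 CPM in the controls and 72.3, 68.9 and 61.0 CPM in Sox10ko, a log2 fold change of 1.78 ± 0.14 (edgeR adjusted p = 0.000248), the lowest adjusted p of any member. Gbp2, which coats pathogen vacuoles, read 5.15, 3.07 and 3.71 CPM against 18.8, 24.2 and 28.8 CPM, a log2 fold change of 2.59 ± 0.25 (edgeR adjusted p = 0.000488). Both genes' groups were well apart in every library.

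Igtp (Irgm3) and Ifi47 belong to the same GTPase family as Irgm1 and were barely read in the controls. Igtp read 0.298, 0.102 and 0.195 CPM against 5.09, 4.62 and 3.69 CPM, a log2 fold change of 4.47 ± 0.39 (edgeR adjusted p = 0.000335), and it shares 162 exonic bases with Irgm2 on the same strand. Ifi47 read 0.136, 0 and 0.0977 CPM against 4.28, 3.00 and 3.39 CPM, a log2 fold change of 5.47 ± 0.64 (edgeR adjusted p = 0.00104). With so few control reads the fitted fold of Ifi47 moved from 44.3 to 66.4 without control replicate 1 and to 29.5 without control replicate 2. Iigp1 (Irga6), of the same family, read 0.0542, 0.0512 and 0.0488 CPM against 0.539, 3.87 and 0.523 CPM, and 80.9% of its Sox10ko reads came from replicate 2. Its log2 fold change was 4.93 ± 1.05 (edgeR adjusted p = 0.0116), the fold without that replicate was 9.72 against 30.4, and the call was lost without control replicate 3. Immunity-related GTPases are near copies of one another, so a share of these reads may be misassigned.

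The smaller gamma changes were in the Gbp family. Gbp3 read 5.40, 4.79 and 4.79 CPM in the controls and 8.06, 11.9 and 9.02 CPM in Sox10ko, a log2 fold change of 0.95 ± 0.20 (edgeR adjusted p = 0.0103), not called without control replicate 3. Gbp7 read 4.80, 3.36 and 3.69 CPM against 5.69, 8.12 and 12.1 CPM, a log2 fold change of 1.13 ± 0.30 (edgeR adjusted p = 0.0279). Its call was lost without control replicate 2, control replicate 3 or Sox10ko replicate 3. Gbp5, a guanylate-binding protein tied to inflammasome assembly, had 21 control and 22 Sox10ko reads and was not tested.

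Over all promoter windows, 41 of the 53 members had an entry, and those without one were Mx1, Mx2, Oas2, Usp18, Parp9, Parp14, Zbp1, Ifi27, Ifi27l2a, Iigp1, Rtp4 and Dhx58. An ISRE core was found in 18 of these 41 genes (43.9%), where 3.99% of all 27025 genes of the RefSeq table have one in a window. A GAS core was found in 14 of the 41 (34.1%), beside 9.55% of all genes, and the stricter form TTCCNGGAA in 4 (9.76%), beside 1.35%. The members were chosen as interferon genes, so these shares describe the list and test nothing. By class an ISRE core was present in 6 of 7 gamma effectors, 8 of 18 type I effectors, 2 of 3 sensors, 2 of 8 transcription factors and 0 of 5 ligand and receptor genes. Of the members called higher 12 of 23 held an ISRE core, and of those not tested 5 of 11 did. One window, that of Bst2, has an ISRE core that overlaps its GAS core. Both genes called lower that have a window, Ifnar1 and Ifnar2, hold a GAS core and no ISRE core. A match is a stretch of letters and not a measured binding site.

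**Figure D3:**
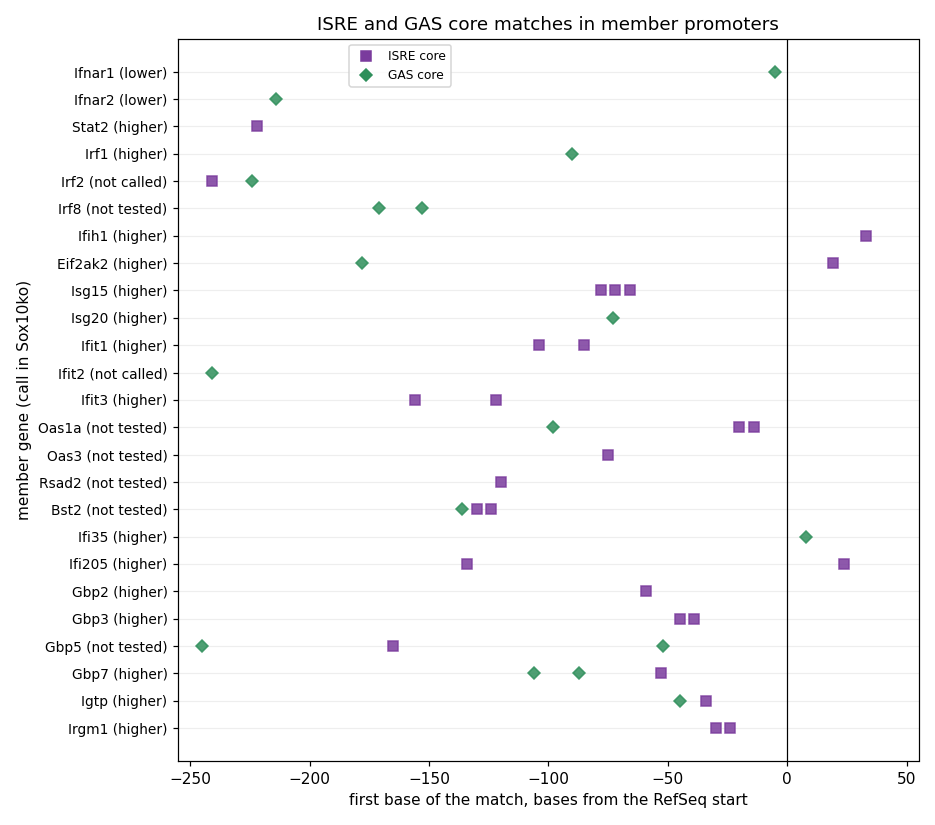
Position of the first base of each ISRE or GAS core, in bases from the RefSeq transcript start, in the promoter windows of the members that hold one, with the call in Sox10ko beside each name. The matches of Isg15, Gbp2, Gbp3, Igtp and Irgm1 lie within 100 bases before the start.

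At the Ifnar and Parp9 loci, both on chromosome 16, genes close to each other changed in opposite directions. On chromosome 16 the receptor genes lie in the order Ifnar2, Il10rb, Ifnar1 and Ifngr2, and their log2 fold changes were -0.47, -1.01, -0.94 and 0.94. On the same chromosome Parp14 (-1.50) lies near Dtx3l (0.93) and Parp9 (0.92). The median log2 fold change of the 482 tested genes of chromosome 16 was 0.08, beside 0.02 for all tested genes. Such a median cannot show a change limited to a stretch of the chromosome, and the cause was not tested. In the Ifit cluster of chromosome 19 Ifit2 (-0.29, not called) is followed by Ifit3 (2.38), Ifit1bl1 (2.57), Ifit3b (1.62), Ifit1bl2 (1.94) and Ifit1 (2.30), all called higher. Ifit3 and Ifit3b are near copies, so how their reads divide is uncertain. Of the Gbp cluster of chromosome 3, the tested members Gbp7 (1.13), Gbp3 (0.95) and Gbp2 (2.59) rose.

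**Figure D4:**
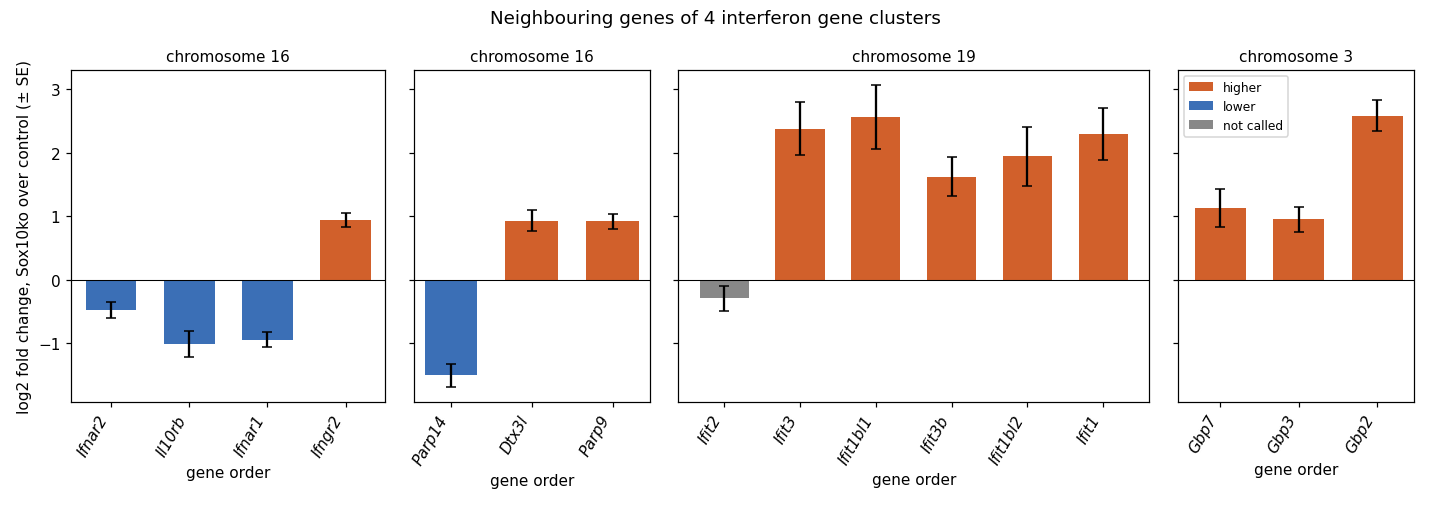
Log2 fold change with its standard error, Sox10ko over control, of tested genes in 4 interferon gene clusters, drawn in gene order and not to distance. Ifngr2 is the only chain of the first cluster above 0, Parp14 is the only gene of the second below 0, and Ifit2 is the only gene of the third that was not called.

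Further genes of the pathway were looked up from lists and are no members. Among receptor chains, kinases and signal transducers, Tyk2, a type I receptor kinase (0.87 ± 0.17, edgeR adjusted p = 0.00757), and Stat3 (0.66 ± 0.12, adjusted p = 0.00611 by edgeR) rose and Il10rb, the shared chain of the lambda and interleukin 10 receptors (-1.01 ± 0.20, edgeR adjusted p = 0.00903), fell. Jak1 (0.32, edgeR adjusted p = 0.136) and Jak2 (-0.15, edgeR adjusted p = 0.330) did not pass. Of 15 sensors and adaptors 14 were tested, with 5 (35.7%) higher and 1 (7.14%) lower, beside 17.3% and 14.7% of all tested genes. The 3 with the lowest p were Tlr7, a sensor of single-stranded RNA (3.20 ± 0.39, edgeR adjusted p = 0.00121), Ddx58 (RIG-I), the partner sensor of Ifih1 (1.03 ± 0.15, edgeR adjusted p = 0.00261), and Mavs, the adaptor of both (0.64 ± 0.10, edgeR adjusted p = 0.00339).

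The negative regulators held the largest fall seen in the pathway. Socs1, an inhibitor of Janus kinases that interferon gamma induces as a brake, read 49.9, 30.6 and 59.7 CPM in the controls and 3.33, 3.94 and 5.18 CPM in Sox10ko, a log2 fold change of -3.49 ± 0.29 (edgeR adjusted p = 0.000287). Of the 8 genes of that list Ptpn6, a phosphatase that acts on cytokine receptors (-2.22 ± 0.43, edgeR adjusted p = 0.00766), fell too, Pias1 rose (0.34, edgeR adjusted p = 0.0186), and 5 were not called. In this list 12.5% of the genes were higher and 25% lower, beside 17.3% and 14.7% of all tested genes. Any link between Socs1 and the members that rose was not tested.

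The further type I-associated genes numbered 35, of which 22 were tested, with a median log2 fold change of 1.09. Of the 22, 15 (68.2%) were higher and 0 were lower, beside 17.3% and 14.7% of all tested genes. On the controls alone 19 of the 22 pass the filter, with a median of 0.93. Of the 19, 12 (63.2%) were higher, beside 14.2% of all such genes. The lowest p belonged to Lgals3bp (2.20 ± 0.21, edgeR adjusted p = 0.000478), Apol9a (5.40 ± 0.55, edgeR adjusted p = 0.000611) and Parp10 (1.14 ± 0.13, edgeR adjusted p = 0.000846). Apol9a, with 32 control reads, entered the test only through its Sox10ko libraries, so its direction is not used as support. Of 17 further gamma-associated genes 9 were tested. Of the 9, 8 (88.9%) were higher and 0 were lower, beside 17.3% and 14.7% of all tested genes. However, 6 of the 9, Tgtp1 and Irgm2 among them, entered only through Sox10ko. The 3 that pass on the controls alone, Gbp9, Nlrc5 and Cd274, were all called higher, beside 14.2% of all such genes. In Sox10ko replicate 1, however, Gbp9 was below every control. Tgtp1, a GTPase with a near-identical copy in Tgtp2, had 1 control read and 205 Sox10ko reads (ratio 206.4, exact 95% counting interval 36.6 to 8190), Irgm2 had a log2 fold change of 4.46 ± 0.50 (edgeR adjusted p = 0.000849), and Cd274 (PD-L1) had 2.37 ± 0.29 (edgeR adjusted p = 0.00120). On chromosome 5, Gbp9, Gbp4 and Gbp8, which overlap in position and were chosen after their values were seen, differed widely between the Sox10ko cultures. Gbp9 read 0.624, 0.768 and 0.610 CPM in the controls and 0.150, 136 and 35.3 CPM in Sox10ko, and Gbp4 had 0, 4 and 2 reads against 0, 2704 and 682. Gbp8 had 1, 2 and 2 reads against 0, 1637 and 591, so these genes were at or near 0 in Sox10ko replicate 1 and far above the controls in replicates 2 and 3. Gbp10, nearby, had 0 control reads and 0, 6 and 7 in Sox10ko. Gbp6 and Gbp11 of that chromosome did not show this split. Gbp6 read 0.136, 0.0768 and 0.0977 CPM against 0.419, 0.892 and 0.673 CPM, above the controls in all 3 Sox10ko libraries, and Gbp11 had 0, 1 and 1 reads against 9, 11 and 4.

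The Sox10ko cultures also differed in which members they held most of. All 31 members called higher, 11 of which entered the test only through Sox10ko, were above every control in each of the 3 Sox10ko libraries. The 31 were picked for being called higher in these same libraries, which favours such separation, so it is not used as support. Of these 31, 15 were highest in replicate 1, 9 in replicate 2 and 7 in replicate 3, and the median log2 difference from the control mean was 1.88, 1.62 and 1.61 in turn. The ratio of the highest to the lowest Sox10ko library was 9.29 for Ifi205, 7.40 for Iigp1, 6.22 for Oasl2, 3.36 for Ifit3 and 3.28 for Samd9l, but 1.06 for Parp9, 1.07 for Xaf1 and 1.19 for Irgm1. The median standard deviation of log2 CPM over the tested members was 0.246 in the controls and 0.281 in Sox10ko, where all tested genes had 0.162 and 0.230.

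Markers of other cell types were read beside these results. Of all tested genes 17.3% were called higher and 14.7% lower. Of 16 leukocyte markers 4 were tested and 2 were higher (Cd68, log2 fold change 1.79, and Lyz2, 3.67). The other 2 tested, Csf1r (-0.435) and Laptm5 (-0.14), were not called. Another 3 had 0 reads in all libraries (Itgam, Cd3e and Tyrobp). Ptprc, which marks all leukocytes, had 3 control reads and 1, 20 and 9 reads in Sox10ko. The summed level of the 16 was 29.4 to 33.1 CPM in the controls and 21.6 to 72.6 CPM in Sox10ko. Laptm5 made up most of that sum in the controls and in Sox10ko replicate 1, but not in Sox10ko replicates 2 and 3, at 24.7, 22.8 and 22.3 CPM against 52.4, 0.915 and 10.2 CPM. Of 6 fibroblast markers 2 were higher (Col1a1 and Col1a2), Col3a1 and Pdgfra were not called, and Dcn and Lum were not tested. The summed level was 285 to 335 CPM against 657 to 1910 CPM. Col1a1 made up most of that sum in Sox10ko, at 116, 234 and 183 CPM against 481, 1684 and 1092 CPM. Of 6 endothelial markers 1 was lower, with sums of 2.64 to 3.36 CPM against 0.749 to 2.09 CPM. The part of these cell types in the changes of the members was not tested, and in bulk libraries fewer cells of a kind and less RNA per cell cannot be told apart.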

How the data were processed

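Polyadenylated RNA of 3 control and 3 Sox10ko Msc80 cultures was sequenced from stranded libraries, per the labels' protocols. The deposited files hold raw read counts per gene, 1 table for each library, which the authors made with STAR 2.6.0c and HTSeq on mm10 (GRCm38), per the submitters' processing notes. The strand setting of the counting is not given in the sources used here. No change was made to the deposited counts. Gene symbols, positions and exon lengths came from GENCODE M21, and 54042 of 54109 identifiers had a symbol. edgeR 4.0.16 in R 4.3.3 tested all genes that passed filterByExpr, with TMM scaling, the quasi-likelihood F-test and Benjamini-Hochberg adjustment over 15427 genes. A gene was called at an adjusted p under 0.05, and the standard error is the size of the log2 fold change divided by the root of F. CPM is TMM-scaled and RPKM is that value per kilobase of merged exons. Exact intervals have a level of 95%, and a count of 0 was limited at 3 reads over a group.

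The members and the lists of further genes were chosen with earlier results of these data known. Values in every library were given for the ligand and receptor genes, Stat2, Irf1, Irf7 and Irf9, and in each other class for up to 5 called members with the largest change and a mean of at least 1 CPM, the 3 with the smallest change, and any called lower. Ifit1, Ifit3, Dtx3l and Iigp1 were added after their values were seen. From further lists up to 3 called genes with the lowest adjusted p were named. Mb21d1 was read under its newer symbol Cgas, and Mnda had no row. The result of 1 further pathway gene is not reported here. Promoters came from the RefSeq table on GRCm38.p6, and 41 of 53 members matched by symbol. Alternatives were other scalings (DESeq2 1.42.0 size factors, library size alone), no low-count filter, a mean of at least 5 CPM, the DESeq2 Wald test, limma-voom (limma 3.58.1), the replicate number as a block, and each library left out in turn. The main test was tested on simulated data first. Replicates of a group differed by far more than counting noise, and no library was found to repeat another.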

Additional observations from a re-analysis of the deposited data

How the results depend on the processing

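Over 13 alternatives, 20 of the 34 called members lost their call under none that tested them, and no called member changed direction. Members with a mean under 5 CPM had no value at that stricter filter. The uncalled Dhx58 had a log2 fold change of 0.04 with library size alone, 0.177 without control replicate 2 and 0.171 without Sox10ko replicate 3, against -0.02 with all libraries and -0.214 as its lowest, without Sox10ko replicate 2. Scaling by library size alone put the median of all genes at 0.078. With no low-count filter the median log2 fold change of the members was 1.722. Restricted to genes whose mean reached 5 CPM, 17 members were higher, 10 of them type I-associated and 5 gamma-associated, with a median of 0.974, since fewer genes were tested. DESeq2's Wald test called 5690 genes, 32 members higher and 3 lower, and limma-voom called 4859, 29 and 3. Calls were lost for Xaf1 with no filter and for Irf7 and Ifi205 with limma-voom. Leaving out 1 library at a time gave 2869 to 4681 genes called, 20 to 32 members higher, 2 to 3 lower, 14 to 22 type I-associated and 5 to 8 gamma-associated members higher, and a median of 1.318 to 1.737. Calls lost without 1 library are named beside the genes, and the cause was not tested. The replicate numbers did not pair the samples: deviations of same-numbered libraries correlated at -0.119, -0.0418 and 0.0355. With the replicate block 3537 genes were called, 28 members were higher and 2 lower, 20 type I-associated and 7 gamma-associated members were higher, and the median was 1.311. The block ended the calls of Gbp7, Xaf1, Ifnar2 and Ifngr1 and of no other member. Members with under 100 reads in the controls, such as Isg15, Rtp4 and Ifi47, have fold sizes that few reads decide.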
